A study of Mus musculus with 12 samples.

Results

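The genes described here are 36 genes of the p53 response and of apoptosis, taken by symbol from the gene table of the array platform, and followed through the differentiation of mouse embryonic stem cells with and without a chemical. Probe sets named for 1 gene alone were found for 34 of the 36 members, and each was read from its probe set with the highest mean over 12 arrays. Probe sets were kept when their mean ranked in the top 60% of the array; all 34 passed and were tested, among 13067 genes in all. Trp53, which encodes p53 itself, and Bax had no such probe set and are not analysed here. The arrays fell into 4 groups of 3: cells at day 8 with the agent labelled BPA, cells at day 8 with the agent labelled NP, control cells at day 8 without an agent, and control cells at day 0 without an agent. All were cells of D3, a single mouse embryonic stem cell line, kept on feeder fibroblasts that had been treated with MMC. They were made to differentiate as embryoid bodies, free aggregates in which germ layer derivatives form, with day 0 as the undifferentiated control. The labels give no dose for either agent and do not spell out the names. They also leave unsaid whether the 3 arrays of a group came from independent cultures. A p-value of the main fit covers no more than the spread of arrays within groups, pooled over the 4 groups, and this spread may be technical.

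The transcription factor p53 is kept scarce in unstressed cells by Mdm2, a ubiquitin ligase that p53 itself induces, and it accumulates after DNA damage and other stress. It then induces genes that halt the cell cycle or repair damage and genes that start apoptosis at the mitochondrion, such as the BH3-only proteins Puma (Bbc3) and Noxa (Pmaip1). BH3-only proteins neutralise survival proteins of the BCL-2 family, cytochrome c leaves the mitochondrion, Apaf1 assembles with it into the apoptosome, and caspases are activated. Death receptors such as Fas activate caspase-8 at the cell surface, and inhibitor of apoptosis proteins hold caspases in check. Undifferentiated stem cells are known for a low threshold to mitochondrial apoptosis.

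Stretches before the start of several members hold the decamer that p53 binds as a pair. RefSeq promoter sequences of assembly GRCm38.p6 were found for 31 members, with 43 promoters, and the 250 bases before the start were searched for this p53 decamer, which is palindromic and so reads alike on both strands. It was present in 7 of the 43 promoters (16.28%), those of Trp53, Mdm2, Bax, Birc5, Gadd45a, Sesn1 and Aen, and in 2341 of 32851 promoters of all genes (7.126%). A complete element, here a pair of decamers at most 13 bases apart, was present in 0 of the 43 and in 21 of all promoters (0.06392%). A match says only that these letters occur in the window. Gadd45a, Mdm2 and Aen were lower in control cells at day 8 than at day 0 and higher with BPA than without it at day 8. Bid, Mcl1 and Cycs, with no decamer in this window, had both calls too, as did Pmaip1, which had no sequence to search. Over the mean of probe sets the BPA calls of Mdm2 and Aen ended (adjusted p = 0.0513 and 0.43 by limma), and each also ended without some single arrays. Gadd45a and Mdm2 are shown in full as examples, and Aen in a shorter window. Capitals mark the decamer, which lies 40 to 31 bases before the start of Gadd45a (chr6:67037408-67037657, minus strand) and 186 to 177 bases before that of Mdm2 (chr10:117710759-117711008, minus strand).
Gadd45a: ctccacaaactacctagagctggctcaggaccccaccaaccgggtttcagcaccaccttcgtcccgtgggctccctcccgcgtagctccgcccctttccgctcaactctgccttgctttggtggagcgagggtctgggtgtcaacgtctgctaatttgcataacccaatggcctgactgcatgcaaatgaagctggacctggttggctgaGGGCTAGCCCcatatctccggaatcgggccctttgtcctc
Mdm2: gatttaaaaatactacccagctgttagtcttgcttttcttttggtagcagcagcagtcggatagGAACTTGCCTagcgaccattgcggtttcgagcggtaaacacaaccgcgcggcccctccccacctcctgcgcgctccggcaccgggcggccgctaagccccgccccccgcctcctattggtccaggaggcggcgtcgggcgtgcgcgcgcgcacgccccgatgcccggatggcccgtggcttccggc

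Shorter windows of 30 bases are given for 3 more tested members with the decamer, again in capitals. Aen (chr7:78895927-78895956, plus strand) shared the directions of Gadd45a and Mdm2, whereas Sesn1 (chr10:41887256-41887285, plus strand) and Birc5 (chr11:117848999-117849028, plus strand) passed no test against control day8 arrays with either agent.
Aen: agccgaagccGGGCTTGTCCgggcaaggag
Sesn1: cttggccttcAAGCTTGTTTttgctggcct
Birc5: gacttgcagcGGACATGCTTtaaagaggtg

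All values are log2 signals made by the authors with MAS5, every array had a trimmed mean signal of 100.04, and arrays of a group correlated at 0.938 to 0.951 over all probe sets. Beside the stem cell label, 10 pluripotent cell markers were read, among them Pou5f1, Nanog and Sox2. In each group 0 of them lay under the background level on all 3 arrays. This shows only that they were detected, on control day8 arrays as well, and does not set the cell state of a group. Levels of markers of several cell types differed between the groups, and their part in the results below was not tested. For each list the unlogged signals of its markers were summed on each array and the sum was put on the log2 scale. The brightest markers therefore weigh most in it. For pluripotent cell markers it spanned 14.37 to 14.43 on BPA arrays, 14.06 to 14.48 on NP arrays, 11.78 to 12.82 on control day8 arrays and 14.85 to 14.88 on control day0 arrays. With each agent all 10 were higher than on control day8 arrays, where 12% of all genes were with BPA and 7.90% with NP. On control day8 arrays all 10 were lower than on control day0 arrays, where 20.5% of all genes were. Fibroblast and feeder markers summed to 9.76 to 10.03 with BPA, 9.76 to 10.14 with NP, 12.66 to 13.22 in control day8 cells and 12.51 to 12.85 in control day0 cells. With each agent 8 of 10 tested markers were lower than on control day8 arrays, where 10.2% of all genes were with BPA and 6.28% with NP. Between control day8 and control day0, 5 of the 10 were higher and 4 lower, where 28.3% and 20.5% of all genes were. Cardiac muscle markers summed to 7.64 to 9.02 with BPA, 7.68 to 10.64 with NP, 11.84 to 12.48 in control day8 cells and 6.65 to 7.07 in control day0 cells. On control day0 arrays 3 of the 8 lay under the background level on all 3. Endothelial markers summed to 7.36 to 7.64 with BPA, 7.00 to 7.63 with NP, 8.82 to 9.06 in control day8 cells and 5.68 to 6.67 in control day0 cells. Blood and macrophage markers summed to 8.50 to 9.14 with BPA, 7.58 to 9.20 with NP, 9.90 to 10.35 in control day8 cells and 6.29 to 6.44 in control day0 cells. Yolk sac endoderm markers summed to 12.92 to 13.41 with BPA, 13.66 to 13.83 with NP, 13.00 to 13.92 in control day8 cells and 7.07 to 7.36 in control day0 cells. In bulk RNA of this kind, fewer cells of a type and less RNA per cell cannot be told apart.

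The question put to these genes was whether either agent left a p53 or death response at day 8. With BPA, 12 of 34 members passed limma's moderated test against control day8 arrays at an adjusted p under 0.05, where 22.2% of all genes passed. Of these members 10 were higher and 2 lower, where 12% (1569) and 10.2% (1337) of all genes were. With NP, 5 of 34 passed (14.7%), where 14.2% of all genes passed, so that this share of members lay near the background. Of these members 4 were higher and 1 lower, where 7.90% and 6.28% of all genes were. A change of at least 1 log2 unit among the calls was met by 3 members with BPA (Gadd45a, Bcl2 and Casp8), where 9.18% of all genes met it, and by 2 with NP (Gadd45a and Pmaip1), where 5.85% did. The groups did not overlap for 21 members with BPA, where 41.6% of all genes had groups that did not overlap, and for 20 with NP, where 34.8% did. The members' median difference was 0.19 with BPA and 0.22 with NP on the log2 scale, beside 0.04 and 0.01 over all genes. The members that were higher with both agents were Gadd45a, Pmaip1, Bid and Mcl1. Each of them had been lower in control cells at day 8 than at day 0. All 10 pluripotent cell markers had the same pattern. Its share among all genes was not counted, so it cannot be called particular to these members. The summed pluripotent cell markers were likewise lower on control day8 arrays than in the other groups, and their part in these differences was not tested. Mdm2, Bcl2l1, Cycs, Birc3, Aen and Trp53inp1 were also higher and Bcl2 and Casp8 lower with BPA, and these did not pass with NP in the main fit. Under some other settings Cycs, Trp53inp1, Bcl2 and Aen passed with NP too (adjusted p as low as 0.00612, 0.00833, 0.00391 and 0.0479). Gadd45g was lower with NP and did not pass with BPA. For 0 of these members did the difference between NP and BPA itself pass. Of 4 caspases and 3 genes of death receptors and their adaptor, 0 were higher with either agent by limma, at an unadjusted p under 0.05 as well. Of all genes 12% were called higher with BPA and 7.90% with NP, so 0 among so few cannot be told from the background. All 4 caspases had a negative difference with each agent, 3 with BPA and 1 with NP at an unadjusted p under 0.05 by limma. Of the 3 receptor and adaptor genes, 2 had a positive difference and 1 a negative difference with each agent. With no filter on low values the BPA calls of Bcl2l1, Birc3 and Aen ended (adjusted p up to 0.0801), and with only the compared groups in the fit those of Bcl2l1, Cycs, Casp8 and Birc3 (adjusted p up to 0.0808). The NP call of Gadd45g ended in both settings (adjusted p up to 0.119), and that of Bid with only the compared groups (adjusted p = 0.0545). Both agents are compared with the same 3 control day8 arrays, as is control day0, so the differences of a gene in these comparisons are not independent of each other.

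**Figure D1:**
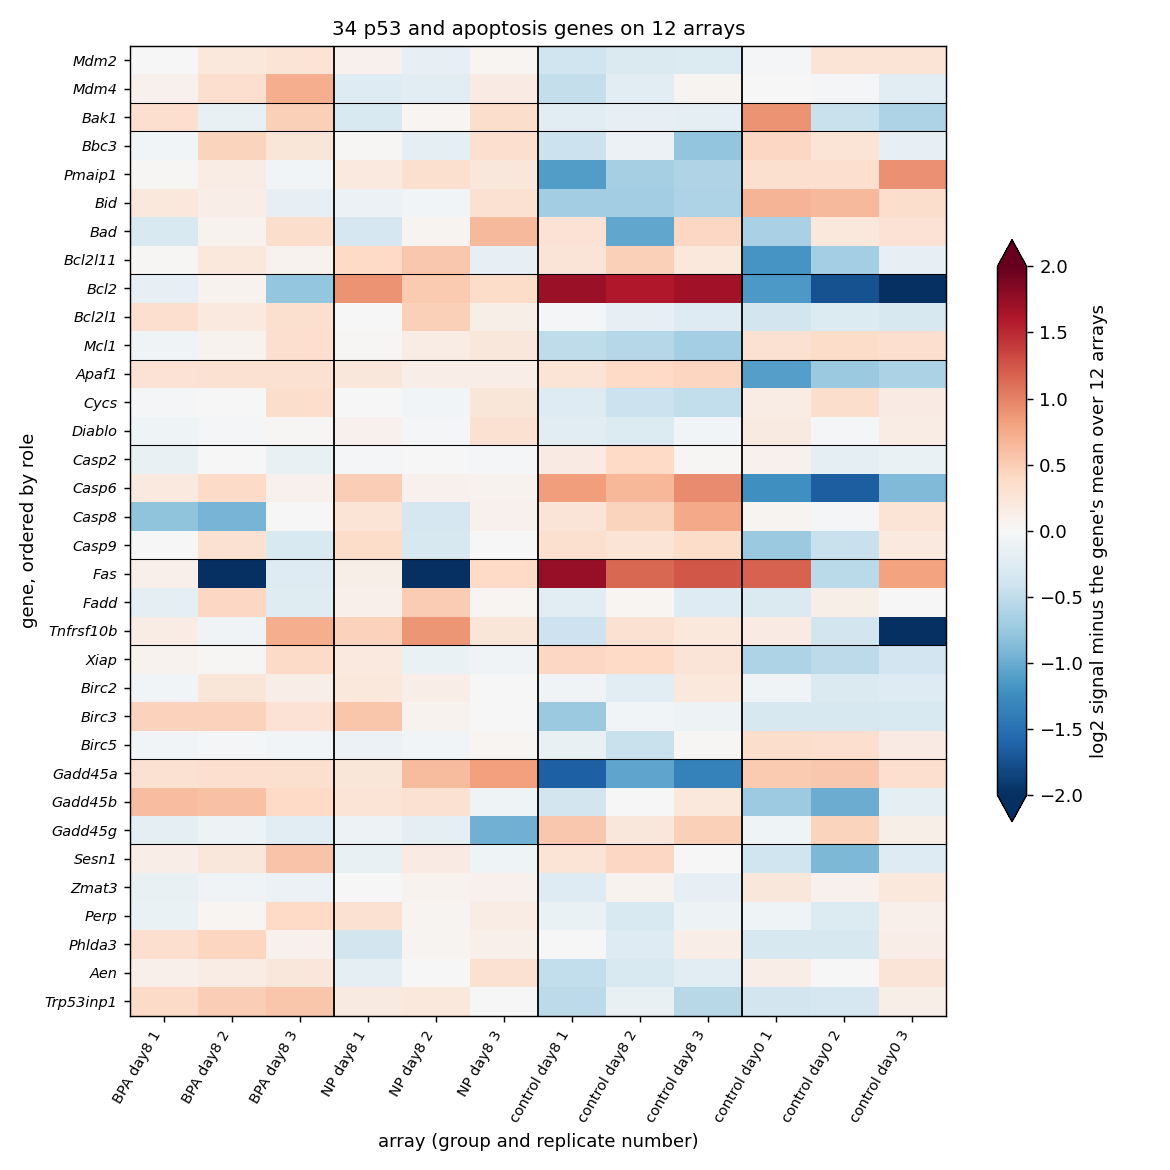
The map shows each of the 34 measured members (rows, by role) on each of the 12 arrays (columns, by group), as its log2 signal minus the gene's mean over the 12 arrays, with the colour scale ending at -2 and 2. Gadd45a, Pmaip1, Bid and Mcl1 are low on the 3 control day8 arrays and higher in the other groups, while Bcl2 is high on the control day8 arrays.

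Between the control groups the share of members that passed lay near that of all genes. Between control day8 and control day0 arrays 16 of 34 members passed (47.1%), where 48.7% of all genes passed. At day 8 there were 6 higher and 10 lower, where 28.3% and 20.5% of all genes were. The members' median difference was -0.02 beside 0.12 over all genes. A change of at least 1 log2 unit was met by 6 members, where 23.0% of all genes met it. The groups did not overlap for 18 members, where 56.8% of all genes had groups that did not overlap. The members higher at day 8 were Bcl2l11, Bcl2, Apaf1, Casp6, Xiap and Sesn1, and those lower were Mdm2, Bbc3, Pmaip1, Bid, Mcl1, Cycs, Birc5, Gadd45a, Zmat3 and Aen. Under quantile normalization or centring on the median the median difference over all genes was 0.01, and none of these 16 changed direction under either. The calls of Bbc3 and Zmat3 ended with no filter on low values (adjusted p up to 0.0752) and, with that of Birc5, in a fit of the compared groups alone (adjusted p up to 0.119). Over the mean of probe sets that of Bbc3 ended too (adjusted p = 0.0536).

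The GADD45 proteins are small stress proteins that bind cell cycle and kinase partners, and Gadd45a is a direct p53 target induced by DNA damage. Gadd45a had log2 signals of 8.71, 8.74 and 8.72 on BPA arrays, 8.65, 9.04 and 9.22 on NP arrays, 6.77, 7.36 and 7.05 on control day8 arrays and 8.93, 8.94 and 8.73 on control day0 arrays. The control day8 arrays lay below all others, and the agent groups overlapped the day 0 range. The difference from control day8 was 1.66 ± 0.18 with BPA (SE, adjusted p = 0.000443, 3.17-fold) and 1.91 ± 0.18 with NP (adjusted p = 0.000557, 3.75-fold). Control day8 differed from control day0 by -1.81 ± 0.18 (adjusted p = 3.97e-05). Against control day0, Gadd45a did not pass with BPA (-0.15, adjusted p = 0.559) or NP (0.10, adjusted p = 0.705). Gadd45b, which is induced by cytokine and stress signals, averaged on its brightest probe set 7.89 ± 0.12 with BPA, 7.51 ± 0.22 with NP, 7.30 ± 0.29 in control day8 cells and 6.72 ± 0.41 in control day0 cells (SD, n = 3 each). It was above control day0 by 1.17 ± 0.22 with BPA (adjusted p = 0.00322) and 0.79 ± 0.22 with NP (adjusted p = 0.021). Neither passed over the mean of its 3 probe sets, at 0.72 with BPA (adjusted p = 0.2) and 0.57 with NP (adjusted p = 0.317). A second Gadd45b probe set was lowest on control day8 arrays, at 0.77 with BPA and 0.37 with NP against control day8 and -0.69 between control day8 and control day0. The brightest did not pass against control day8 with BPA (0.59, adjusted p = 0.0849) or NP (0.21, adjusted p = 0.575). Gadd45g, linked to differentiation and growth arrest, averaged 6.58 ± 0.06 with BPA, 6.33 ± 0.47 with NP, 7.16 ± 0.17 in control day8 cells and 6.90 ± 0.27 in control day0 cells (SD, n = 3 each). It was lower with NP than on control day8 arrays by limma (-0.83 ± 0.22, adjusted p = 0.0384). Its call ended without any control day8 or BPA array or without NP array 2 or 3 (adjusted p up to 0.12). The difference with BPA (-0.58, adjusted p = 0.095) passed without NP array 3 (adjusted p = 0.0247). The Gadd45b difference between NP and control day0 ended without control day0 array 1 or 2 or NP array 1 or 2 (adjusted p up to 0.0746). That with BPA against control day8 passed without control day0 array 3 (adjusted p = 0.0427).

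**Figure D2:**
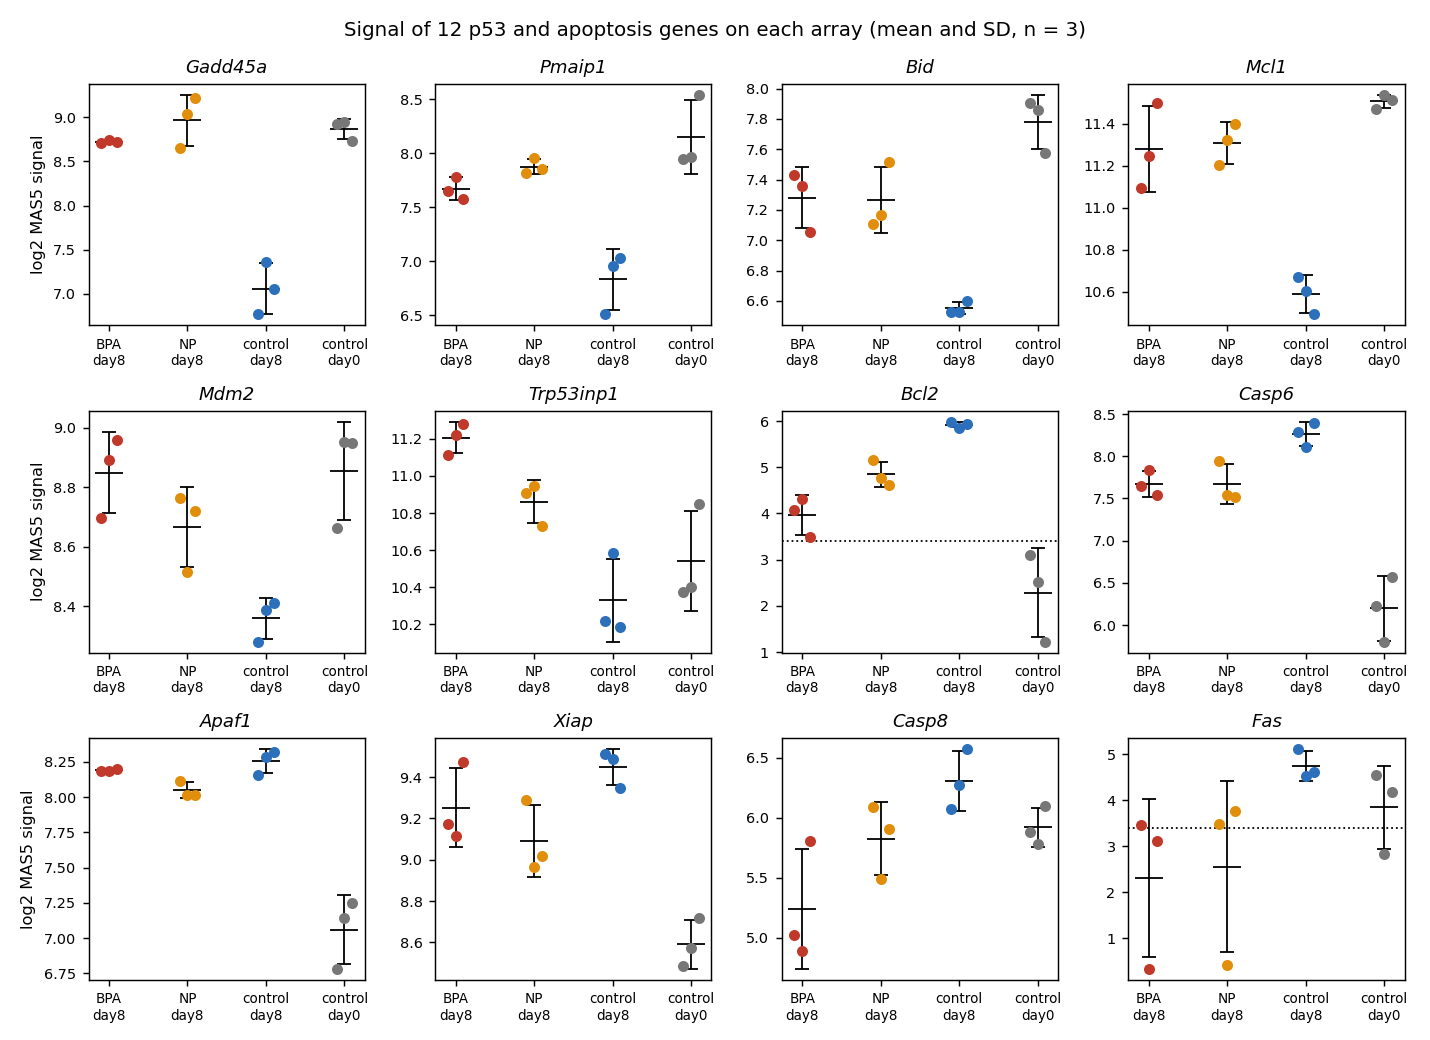
Log2 signals of selected members on each array (points) with the group mean and SD (bars, n = 3) for BPA day8, NP day8, control day8 and control day0, with 1 panel a gene. In the panels of Bcl2 and Fas a dotted line marks the background level of 3.41, and the 3 control day0 points of Bcl2 lie under it.

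Among the BH3-only killers, Pmaip1 and Bid were, like Gadd45a, lowest on the control day8 arrays. Pmaip1, the BH3-only protein Noxa, had 7.65, 7.78 and 7.58 on BPA arrays, 7.82, 7.95 and 7.85 on NP arrays, 6.51, 6.96 and 7.03 on control day8 arrays and 7.95, 7.97 and 8.54 on control day0 arrays. Every array with an agent lay above every control day8 array. Its difference from control day8 was 0.84 ± 0.18 with BPA (adjusted p = 0.0111) and 1.04 ± 0.18 with NP (adjusted p = 0.00722). Control day8 was at -1.32 ± 0.18 against control day0 (adjusted p = 0.000325). Bid, which links death receptor signals to the mitochondrion, had 7.43, 7.36 and 7.06 on BPA arrays, 7.11, 7.17 and 7.52 on NP arrays, 6.53, 6.53 and 6.60 on control day8 arrays and 7.90, 7.86 and 7.57 on control day0 arrays. Both agent groups lay between the control groups, with no overlap with either. Bid was higher than on control day8 arrays by 0.73 ± 0.15 with BPA (adjusted p = 0.00763) and 0.71 ± 0.15 with NP (adjusted p = 0.0137). It was below control day0, at -0.50 with BPA (adjusted p = 0.0274) and -0.52 with NP (adjusted p = 0.0243). Bbc3, the p53 target Puma, averaged 6.72 ± 0.25 with BPA, 6.56 ± 0.26 with NP, 6.06 ± 0.33 in control day8 cells and 6.68 ± 0.30 in control day0 cells (SD, n = 3 each). It passed between control day8 and control day0 (-0.62 ± 0.23, adjusted p = 0.0456), and not with BPA (0.66 ± 0.23, adjusted p = 0.0648) or NP (0.51 ± 0.23, adjusted p = 0.175). Bcl2l11, the BH3-only protein Bim, averaged 8.15 ± 0.09 with BPA, 8.30 ± 0.38 with NP, 8.36 ± 0.14 in control day8 cells and 7.37 ± 0.51 in control day0 cells (SD, n = 3 each). It was higher at day 8 in controls on its brightest probe set (0.99 ± 0.25, adjusted p = 0.00959). Over the mean of its 5 probe sets, of which the other 4 were at 0.77, 0.60, -0.17 and -0.39, it did not pass (0.36, adjusted p = 0.0948). Bad, a BH3-only protein switched by survival kinases, passed in no comparison and ranged from 4.89 to 6.58.

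The Bid difference with NP ended without control day8 array 1 (0.70, adjusted p = 0.0519) and over the mean of its probe sets (0.50, adjusted p = 0.11), as did that between BPA and control day0 over this mean (-0.13, adjusted p = 0.619). Its differences from control day0 ended without control day0 array 1 or 2, with BPA also without BPA array 3 (adjusted p up to 0.0959) and with NP without NP array 1 or 2 (adjusted p up to 0.0874). The Bbc3 call between the controls ended without control day0 array 1 or 2, control day8 array 1 or 3, BPA array 2 or 3 or NP array 1 or 2 (adjusted p up to 0.15). Without control day8 array 2 its difference with BPA passed (0.82, adjusted p = 0.0481). It also passed under median centring, quantile normalization, a pseudocount of 16, a trend and robust prior and the top 40% of probe sets (adjusted p from 0.0325 to 0.0458).

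The survival proteins of the BCL-2 family went in different directions. Mcl1, a short-lived survival protein that binds Noxa and Bim, had 11.09, 11.25 and 11.50 on BPA arrays, 11.20, 11.33 and 11.40 on NP arrays, 10.67, 10.60 and 10.49 on control day8 arrays and 11.47, 11.54 and 11.51 on control day0 arrays. The control day8 arrays were again the lowest, with no overlap with any other group. Mcl1 was higher than on control day8 arrays by 0.69 ± 0.12 with BPA (adjusted p = 0.00327) and 0.72 ± 0.12 with NP (adjusted p = 0.00462). Control day8 was at -0.92 ± 0.12 against control day0 (adjusted p = 0.000173). All 6 probe sets named for Mcl1 had these directions. Bcl2, the founding survival protein of the family, had 4.08, 4.32 and 3.49 on BPA arrays, 5.15, 4.77 and 4.62 on NP arrays, 5.98, 5.86 and 5.94 on control day8 arrays and 3.11, 2.52 and 1.23 on control day0 arrays. It was high on control day8 arrays and under the background level of 3.41 on all 3 control day0 arrays, so that differences from day 0 are lower bounds. Bcl2 was at least 5.72-fold higher on control day8 than on control day0 arrays (adjusted p = 9.36e-05), at least 1.47-fold with BPA (adjusted p = 0.012) and at least 2.71-fold with NP (adjusted p = 0.00158). With BPA it was lower than on control day8 arrays (-1.96 ± 0.41, adjusted p = 0.00918), and with NP it did not pass (-1.08 ± 0.41, adjusted p = 0.119). Without control day0 array 3 the difference with NP passed (adjusted p = 0.024). It also passed with a pseudocount of 16 (-0.77, adjusted p = 0.00391) and in a fit of the compared groups alone (adjusted p = 0.0326). Over the mean of its probe sets no Bcl2 difference from a control group passed (adjusted p from 0.0561 to 0.786). Bcl2l1, which encodes Bcl-xL, averaged 7.32 ± 0.08 with BPA, 7.24 ± 0.25 with NP, 6.89 ± 0.12 in control day8 cells and 6.72 ± 0.05 in control day0 cells (SD, n = 3 each). On its brightest probe set it passed with BPA against control day8 (0.43 ± 0.13, adjusted p = 0.0415) and against control day0 (0.60 ± 0.13, adjusted p = 0.00645). The first of these ended without any 1 of 10 arrays (adjusted p up to 0.112), and over the mean of its 2 kept probe sets neither passed and both turned negative, at -0.38 and -0.15.

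Of the mitochondrial factors, Apaf1 and Cycs moved in opposite directions over control differentiation. Apaf1, the scaffold of the apoptosome, averaged 8.19 ± 0.01 with BPA, 8.05 ± 0.06 with NP, 8.25 ± 0.09 in control day8 cells and 7.06 ± 0.24 in control day0 cells (SD, n = 3 each). It was higher than on control day0 arrays at day 8 in all 3 groups, by 1.13 ± 0.12 with BPA (adjusted p = 0.000181), 0.99 ± 0.12 with NP (adjusted p = 0.000391) and 1.20 ± 0.12 in controls (adjusted p = 5.04e-05). Against control day8 it did not pass with BPA (-0.06, adjusted p = 0.75) or NP (-0.20, adjusted p = 0.305). Cycs, cytochrome c, averaged 11.92 ± 0.20 with BPA, 11.86 ± 0.15 with NP, 11.41 ± 0.12 in control day8 cells and 12.02 ± 0.12 in control day0 cells (SD, n = 3 each). It was lower on control day8 than on control day0 arrays (-0.61 ± 0.13, adjusted p = 0.00411) and higher with BPA than on control day8 arrays (0.51 ± 0.13, adjusted p = 0.023), while NP did not pass (0.45 ± 0.13, adjusted p = 0.0503). The BPA call for Cycs ended without control day8 array 2 or 3 or BPA array 3 (adjusted p up to 0.0736) and over the mean of its probe sets (0.30, adjusted p = 0.0797). Without BPA array 3 the NP difference passed (adjusted p = 0.0365). It also passed under median centring, a pseudocount of 16, a trend and robust prior and the top 40% of probe sets (adjusted p from 0.00612 to 0.0368). Diablo, which frees caspases from their inhibitors, passed in no comparison, at 0.15 with BPA, 0.30 with NP and -0.27 between the controls. The last of these passed without control day8 array 3 (adjusted p = 0.0492). It also passed under median centring (-0.39, adjusted p = 0.0303), quantile normalization (-0.40, adjusted p = 0.0179) and the replicate block (-0.27, adjusted p = 0.0462). Bak1, a pore-forming effector of the outer mitochondrial membrane, ranged from 5.42 to 6.93 and passed in no comparison, though its difference between BPA and control day0 passed without control day0 array 1 (0.75, adjusted p = 0.0372).

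Of the caspases, Casp6 followed differentiation and Casp8 was lower with BPA. Casp6, an effector caspase, had 7.64, 7.83 and 7.54 on BPA arrays, 7.94, 7.54 and 7.52 on NP arrays, 8.28, 8.11 and 8.40 on control day8 arrays and 6.22, 5.80 and 6.56 on control day0 arrays. Both agent groups lay between the controls with no overlap with either. Casp6 was above control day0 by 1.47 ± 0.20 with BPA (adjusted p = 0.000574), 1.47 ± 0.20 with NP (adjusted p = 0.000622) and 2.06 ± 0.20 on control day8 arrays (adjusted p = 3.72e-05). Against control day8 the differences of -0.59 with BPA (adjusted p = 0.0591) and -0.59 with NP (adjusted p = 0.0778) did not pass. Both passed without control day0 array 2 or 3 (adjusted p as low as 0.0319 and 0.0452). They also passed with array weights, a pseudocount of 16, a trend and robust prior and the top 40% of probe sets (adjusted p from 0.0223 to 0.048). That with BPA passed in a fit of the compared groups alone as well (adjusted p = 0.0405). Casp8, the initiator caspase of death receptors, had 5.02, 4.88 and 5.81 on BPA arrays, 6.09, 5.49 and 5.90 on NP arrays, 6.07, 6.27 and 6.57 on control day8 arrays and 5.88, 5.78 and 6.09 on control day0 arrays. Each BPA array lay below each control day8 array, and the NP arrays overlapped both control groups. The difference from control day8 was -1.07 ± 0.26 with BPA (adjusted p = 0.0158) and -0.48 ± 0.26 with NP (adjusted p = 0.251). The BPA call ended without BPA array 1 (-0.96, adjusted p = 0.0562) or BPA array 2 (-0.89, adjusted p = 0.0556). Without BPA array 3 the difference from control day0 passed as well (-0.97, adjusted p = 0.0112). It also passed under median centring, quantile normalization, array weights and the replicate block. The same held with a trend and robust prior and with the top 40% of probe sets (adjusted p from 0.0253 to 0.0486 over these settings). Casp9, the initiator caspase of the apoptosome, ranged from 5.54 to 6.66 and Casp2, a caspase linked to mitotic and DNA damage stress, from 7.47 to 8.06. Neither passed in any comparison, at -0.32 and -0.30 with BPA and -0.31 and -0.22 with NP. Without single arrays Casp9 passed between the controls (without control day0 array 3, adjusted p = 0.0103). So did Casp2 (without control day0 array 1 or control day8 array 3, adjusted p as low as 0.0363), which was lower with BPA without control day8 array 3 (adjusted p = 0.0489).

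The death receptors and their adaptor passed in no comparison, and both receptors had arrays under the background level. Fas had 3.46, 0.34 and 3.11 on BPA arrays, 3.48, 0.43 and 3.76 on NP arrays, 5.11, 4.52 and 4.61 on control day8 arrays and 4.55, 2.83 and 4.17 on control day0 arrays. All 6 arrays with an agent lay below the control day8 arrays, and 2 BPA arrays, 1 NP array and 1 control day0 array were under the background level. The fitted differences of -2.44 ± 1.01 with BPA (adjusted p = 0.114) and -2.19 ± 1.01 with NP (adjusted p = 0.188) did not pass. Both passed with a pseudocount of 16, at -0.93 with BPA (adjusted p = 0.0167) and -0.84 with NP (adjusted p = 0.038). Tnfrsf10b, the receptor of the death ligand TRAIL, averaged 4.40 ± 0.41 with BPA, 4.67 ± 0.33 with NP, 4.17 ± 0.39 in control day8 cells and 3.30 ± 1.29 in control day0 cells (SD, n = 3 each). The difference between NP and control day0 passed without control day0 array 1 (adjusted p = 0.0314) and with a pseudocount of 16 (0.60, adjusted p = 0.046). Fadd, the adaptor that recruits caspase-8, ranged from 5.19 to 5.98, at 0.14 with BPA and 0.36 with NP against control day8 (adjusted p = 0.675 and 0.276).

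Among the inhibitor of apoptosis proteins, Birc3 was higher with BPA than in either control group. Birc3, a ubiquitin ligase induced by NF-kB, had 6.43, 6.43 and 6.25 on BPA arrays, 6.53, 6.04 and 5.96 on NP arrays, 5.21, 5.91 and 5.87 on control day8 arrays and 5.64, 5.64 and 5.66 on control day0 arrays. Every array with an agent lay above every control array. The BPA difference was 0.71 ± 0.20 against control day8 (adjusted p = 0.0329) and 0.72 ± 0.20 against control day0 (adjusted p = 0.0212). The NP differences of 0.51 ± 0.20 (adjusted p = 0.128) and 0.53 ± 0.20 (adjusted p = 0.0725) did not pass. These calls depended on single arrays. Against control day8 the BPA call ended without control day8 array 1 or any BPA array (adjusted p up to 0.0903). Against control day0 it ended without control day0 array 1 or 2 or BPA array 1 or 2 (adjusted p up to 0.0606). Without control day8 array 1 the NP difference from control day0 passed (adjusted p = 0.0264). Xiap, a direct caspase inhibitor, averaged 9.25 ± 0.19 with BPA, 9.09 ± 0.17 with NP, 9.45 ± 0.09 in control day8 cells and 8.59 ± 0.12 in control day0 cells (SD, n = 3 each). It was higher than on control day0 arrays with BPA (0.66 ± 0.13, adjusted p = 0.00419), with NP (0.50 ± 0.13, adjusted p = 0.0168) and on control day8 arrays (0.86 ± 0.13, adjusted p = 0.000541). The NP call ended without control day0 array 1 or NP array 1 (adjusted p up to 0.0635). None of the 3 passed over the mean of its probe sets, at -0.04 with BPA (adjusted p = 0.913), 0.21 with NP (adjusted p = 0.568) and 0.37 on control day8 arrays (adjusted p = 0.243). Birc5, survivin, a protein of dividing cells, averaged 9.92 ± 0.01 with BPA, 9.93 ± 0.08 with NP, 9.78 ± 0.24 in control day8 cells and 10.26 ± 0.11 in control day0 cells (SD, n = 3 each). It was lower on control day8 than on control day0 arrays (-0.48 ± 0.12, adjusted p = 0.00987) and did not pass with BPA (0.15, adjusted p = 0.442) or NP (0.15, adjusted p = 0.475) against control day8. Against control day0 its differences with BPA and NP (both -0.33, adjusted p = 0.0644 and 0.0682) passed without control day8 array 2 or 3 (adjusted p as low as 0.0287 and 0.0303). Birc2, a close relative of Birc3, passed in no comparison and ranged from 7.97 to 8.50.

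**Figure D3:**
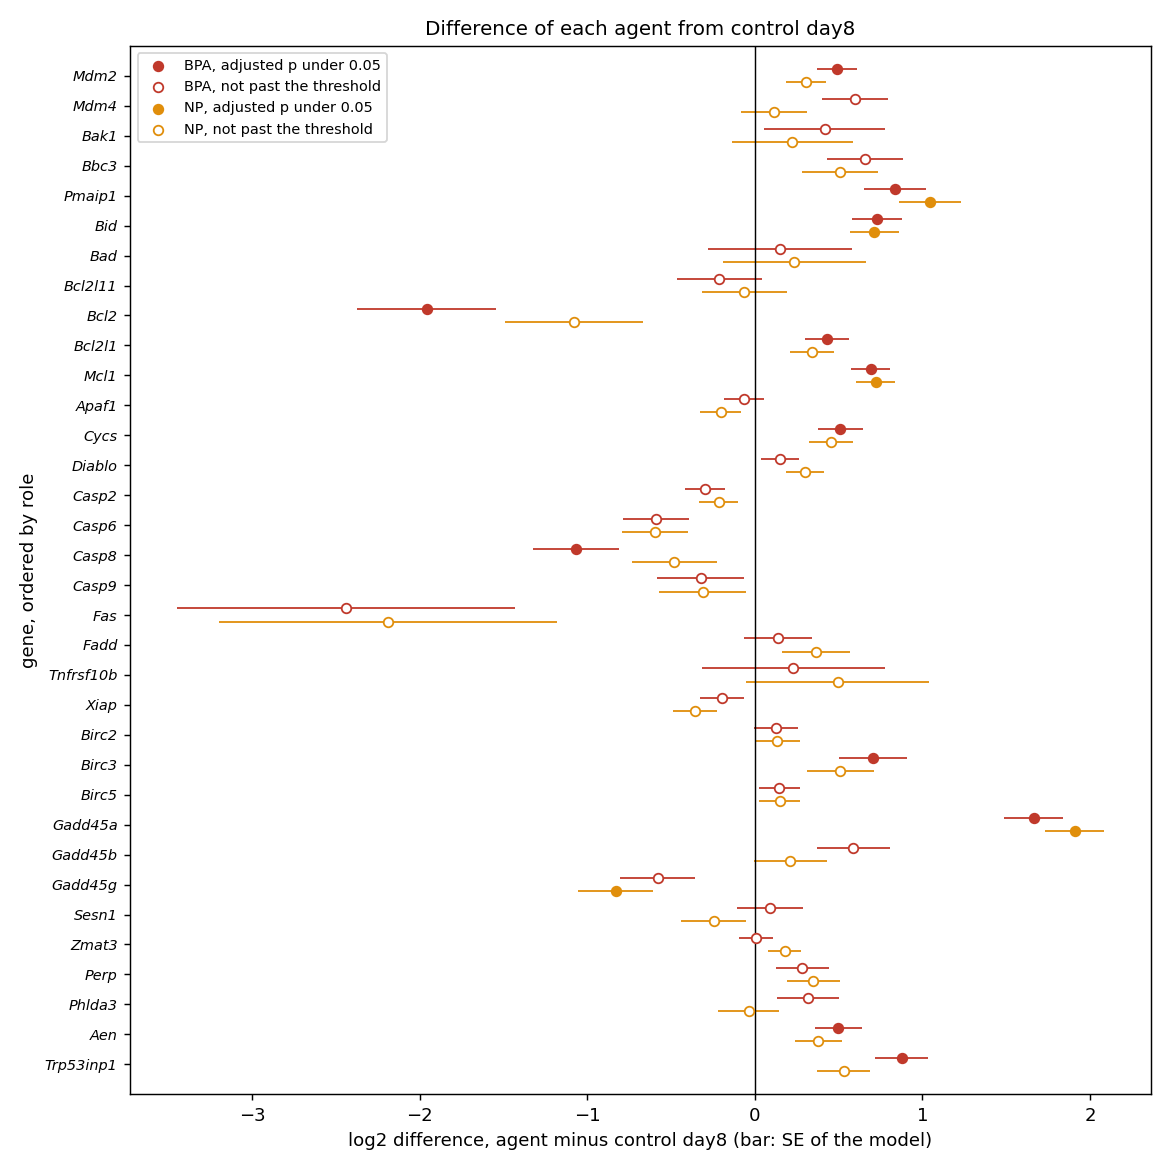
Difference of each member from control day8 arrays on the log2 scale with its SE (bars) for BPA and for NP, with filled points for an adjusted p under 0.05. With BPA 12 of 34 points are filled, 10 of them to the right of 0, and with NP 5 are filled, 4 of them to the right.

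The direct regulators of p53 and its other targets differed among themselves. Mdm2 had 8.70, 8.89 and 8.96 on BPA arrays, 8.77, 8.52 and 8.72 on NP arrays, 8.28, 8.39 and 8.41 on control day8 arrays and 8.66, 8.95 and 8.95 on control day0 arrays. The control day8 arrays were the lowest, with no overlap. Mdm2 was higher with BPA (0.49 ± 0.12, adjusted p = 0.0175). It did not pass with NP (0.31 ± 0.12, adjusted p = 0.124), and was lower on control day8 than on control day0 arrays (-0.49 ± 0.12, adjusted p = 0.00712). The BPA call ended without control day8 array 1 or BPA array 2 or 3 (adjusted p up to 0.0645) and over the mean of its probe sets (0.38, adjusted p = 0.0513). Mdm4, which inhibits p53 beside Mdm2, averaged 8.17 ± 0.32 with BPA, 7.68 ± 0.23 with NP, 7.57 ± 0.27 in control day8 cells and 7.71 ± 0.12 in control day0 cells (SD, n = 3 each). It did not pass with BPA (0.60 ± 0.20, adjusted p = 0.0565) or NP (0.12 ± 0.20, adjusted p = 0.754). The BPA difference passed without control day8 array 3 or BPA array 1 (adjusted p as low as 0.0348). It also passed under median centring, quantile normalization, a pseudocount of 16, array weights and the replicate block. The same held with a trend and robust prior and with the top 40% of probe sets (adjusted p from 0.0178 to 0.046 over these settings).

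Trp53inp1, a p53 target that promotes p53 phosphorylation and autophagy, had 11.11, 11.22 and 11.28 on BPA arrays, 10.91, 10.94 and 10.73 on NP arrays, 10.22, 10.59 and 10.19 on control day8 arrays and 10.37, 10.40 and 10.85 on control day0 arrays. The BPA arrays lay above all others. Its difference with BPA was 0.88 ± 0.16 from control day8 (adjusted p = 0.00449) and 0.66 ± 0.16 from control day0 (adjusted p = 0.00989), and these calls held whichever of the 12 arrays was left out. With NP it was 0.53 ± 0.16 from control day8 (adjusted p = 0.0517) and 0.32 ± 0.16 from control day0 (adjusted p = 0.152). Without control day0 array 3 both passed (adjusted p = 0.0285 and 0.0344), and without control day8 array 2 the first did (adjusted p = 0.0386). The first also passed with array weights, a pseudocount of 16, a trend and robust prior and the top 40% of probe sets (adjusted p from 0.00833 to 0.0338). Aen, an exonuclease induced by p53 that digests DNA in dying cells, averaged 8.70 ± 0.06 with BPA, 8.58 ± 0.25 with NP, 8.20 ± 0.15 in control day8 cells and 8.68 ± 0.12 in control day0 cells (SD, n = 3 each). It was higher with BPA (0.50 ± 0.14, adjusted p = 0.0309). It did not pass with NP (0.38 ± 0.14, adjusted p = 0.106), and was lower on control day8 than on control day0 arrays (-0.47 ± 0.14, adjusted p = 0.0189). The NP difference passed with array weights (adjusted p = 0.0479) and with a trend and robust prior (adjusted p = 0.0493). The BPA call ended without control day8 array 1 or 2 or any BPA array (adjusted p up to 0.111). Over the mean of its 4 probe sets Aen did not pass with BPA (0.19, adjusted p = 0.43) or between the controls (-0.33, adjusted p = 0.0981). The call between the controls also ended without control day0 array 3 or control day8 array 1 (adjusted p up to 0.0706).

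The remaining targets in the list passed with neither agent against control day8. Sesn1, a sestrin that restrains growth signalling under stress, averaged 7.41 ± 0.23 with BPA, 7.07 ± 0.16 with NP, 7.32 ± 0.21 in control day8 cells and 6.58 ± 0.34 in control day0 cells (SD, n = 3 each). Its differences of 0.83 ± 0.20 with BPA (adjusted p = 0.00986) and 0.74 ± 0.20 on control day8 (adjusted p = 0.011) from control day0 passed. That with NP (0.49 ± 0.20, adjusted p = 0.0819) passed without control day0 array 3 (adjusted p = 0.0489). Zmat3, an RNA-binding p53 target, averaged 8.67 ± 0.04 with BPA, 8.84 ± 0.04 with NP, 8.66 ± 0.17 in control day8 cells and 8.96 ± 0.08 in control day0 cells (SD, n = 3 each). It was at 0.01 with BPA and 0.18 with NP against control day8 (adjusted p = 0.974 and 0.278). Its differences from control day0 on BPA arrays (-0.29, adjusted p = 0.0473) and on control day8 arrays (-0.30, adjusted p = 0.0318) passed. They ended without any 1 of 10 arrays for BPA (adjusted p up to 0.128) and without control day0 array 1 or 3 or control day8 array 1 or 3 for control day8 (adjusted p up to 0.115). Perp, a membrane protein of p53-dependent death, was at 0.28 with BPA and 0.35 with NP (adjusted p = 0.23 and 0.176), and Phlda3, an inhibitor of Akt induced by p53, at 0.32 with BPA and -0.04 with NP (adjusted p = 0.253 and 0.926). Perp ranged from 7.20 to 7.91 and Phlda3 from 7.24 to 8.04 over the 12 arrays, and Phlda3 passed between BPA and control day0 without control day0 array 3 (0.60, adjusted p = 0.0368).

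The agent groups were also set against the undifferentiated control. Between BPA and control day0 arrays 12 of 34 members passed, where 33.6% of all genes passed. Of these 10 were higher and 2 lower, where 21.7% and 11.9% of all genes were. Between NP and control day0 arrays 8 passed, where 32.1% of all genes passed. Of these 7 were higher and 1 lower, where 20.2% and 11.9% of all genes were, and over the mean of each gene's probe sets the split turned to 1 higher and 3 lower. The groups did not overlap for 17 members with BPA, where 49.4% of all genes had such groups, and for 15 with NP, where 47.6% did. A change of at least 1 log2 unit was met by 4 members with BPA, where 13.0% of all genes met it, and by 2 with NP, where 12.3% did. The members' median difference was 0.14 with BPA and 0.10 with NP, beside 0.14 with BPA and 0.10 with NP over all genes. Bcl2l11, Bcl2, Bcl2l1, Apaf1, Casp6, Xiap and Gadd45b were higher with each agent than at day 0, and Bid was lower with each. Birc3, Sesn1 and Trp53inp1 were higher and Zmat3 lower with BPA. The Bcl2l11 differences of 0.78 ± 0.25 with BPA (adjusted p = 0.04) and 0.93 ± 0.25 with NP (adjusted p = 0.0199) ended without any 1 of 9 arrays with BPA (adjusted p up to 0.128) and without control day0 array 1 or 2 or NP array 1 or 2 with NP (adjusted p up to 0.0716). Pmaip1 and Mcl1 did not pass against control day0 with BPA (-0.48 and -0.23, adjusted p = 0.0723 and 0.161) or NP (-0.28 and -0.20, adjusted p = 0.292 and 0.223). Mcl1 passed with BPA without BPA array 3 (-0.34, adjusted p = 0.0484). Over the mean of its probe sets it was lower than at day 0 with BPA (-0.58, adjusted p = 0.00792) and NP (-0.42, adjusted p = 0.0324). Over the same mean Mdm2 was lower than at day 0 with NP (-0.48, adjusted p = 0.0148), and Apaf1 with NP (0.74, adjusted p = 0.0633), both Bcl2l11 differences (adjusted p up to 0.0845) and Zmat3 with BPA (adjusted p = 0.071) did not pass. In a fit of the compared groups alone, the calls ended for Bid, Bcl2l11, Bcl2 and Zmat3 with BPA (adjusted p up to 0.0845) and for Bid, Bcl2l11, Bcl2l1 and Gadd45b with NP (adjusted p up to 0.0912). With no filter those of Bid, Bcl2l11 and Zmat3 with BPA ended (adjusted p up to 0.0956).

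**Figure D4:**
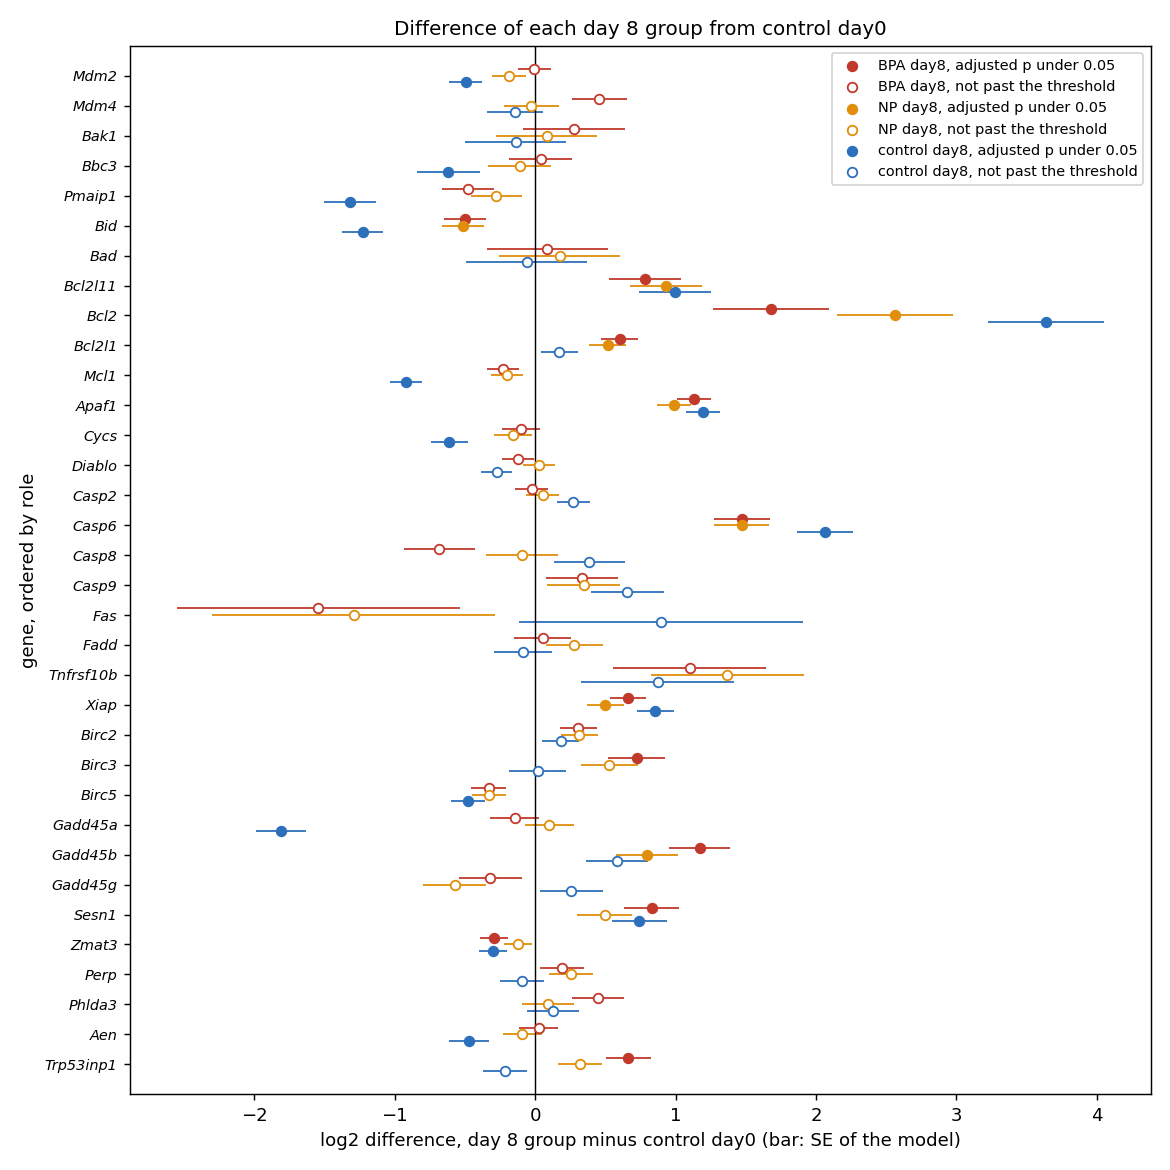
Difference of each member from control day0 arrays on the log2 scale with its SE (bars) for BPA day8, NP day8 and control day8, with filled points for an adjusted p under 0.05. Casp6, Apaf1 and Xiap lie to the right of 0 in all 3 groups, and Gadd45a lies near 0 with BPA (-0.15) and NP (0.10) and at -1.81 on control day8 arrays.

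No member passed between the agents. Between NP and BPA arrays 0 of 34 members passed limma's test, where 0.00765% of all genes, 1 of 13067, passed. The groups did not overlap for 6 members, where 17.0% of all genes had such groups. At an unadjusted p under 0.05 there were 2, Casp8 (0.59 higher with NP) and Mdm4 (-0.48), with an adjusted p of 0.589 and 0.561. The 95% interval of the difference lay within 1 log2 unit of 0 for 28 members. For Gadd45a it ran from -0.15 to 0.64, for Pmaip1 from -0.21 to 0.62, for Bid from -0.35 to 0.31 and for Mcl1 from -0.23 to 0.29. For 6 members, Bad, Bak1, Bcl2, Casp8, Fas and Tnfrsf10b, it was wider, and for Bcl2 it ran from -0.04 to 1.81.

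The wider p53 pathway was read from 67 further genes, of which 56 were tested. Against control day8, 12 of the 56 were higher and 6 lower with BPA, and 8 were higher and 5 lower with NP, set against the 22.2% and 14.2% of all genes that passed in either direction. Of 20 other p53 targets, 3 were higher and 1 lower with BPA and 2 higher and 2 lower with NP. Cdkn1a, which encodes the cell cycle inhibitor p21 and is the classic p53 target, had 8.71, 9.01 and 8.80 on BPA arrays, 8.83, 8.69 and 8.58 on NP arrays, 9.15, 9.12 and 9.23 on control day8 arrays and 9.18, 9.05 and 9.31 on control day0 arrays. All 6 arrays with an agent lay below the control day8 arrays. Cdkn1a was lower with NP (-0.47 ± 0.11, adjusted p = 0.0273) and did not pass with BPA (-0.32 ± 0.11, adjusted p = 0.0752). The NP call ended without any control day8 array or NP array 2 or 3 (adjusted p up to 0.094). Plk3, a stress-induced kinase, averaged 6.27 ± 0.12 with BPA, 5.99 ± 0.46 with NP, 3.19 ± 1.66 in control day8 cells and 6.16 ± 0.34 in control day0 cells (SD, n = 3 each). With control day8 values set to no less than the background level it was at least 5.18-fold higher with BPA (adjusted p = 0.00977) and at least 4.26-fold with NP (adjusted p = 0.0229). The NP call ended without NP array 1 or 2 (adjusted p up to 0.0823). Tigar, a regulator of glycolysis induced by p53, was higher by 1.47 ± 0.26 with BPA (adjusted p = 0.00397) and 1.02 ± 0.26 with NP (adjusted p = 0.0298). The NP call ended without control day8 array 1 or 2 or NP array 2 or 3 (adjusted p up to 0.107). Gtse1, a protein of the later cell cycle that restrains p53, was higher with BPA (0.68 ± 0.11, adjusted p = 0.00265). Sesn2, another sestrin, was lower with BPA (-0.57 ± 0.15, adjusted p = 0.0272), a call that ended without control day8 array 1 or 2 or BPA array 3 (adjusted p up to 0.08) and over the mean of its probe sets (-0.25, adjusted p = 0.375). Tigar over this mean was at 0.91 with BPA (adjusted p = 0.00341) and 0.60 with NP (adjusted p = 0.0335). Ercc5, a nuclease of excision repair, was lower with NP (-0.44 ± 0.12, adjusted p = 0.0407), a call that ended without any 1 of 8 arrays (adjusted p up to 0.138).

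Kinases, partners and modifiers of p53 had 7 of 18 genes higher and 3 lower with BPA, and 5 higher and 2 lower with NP. Of all genes 22.2% passed with BPA, 12% higher and 10.2% lower, and 14.2% with NP, 7.90% higher and 6.28% lower. Chek2, a checkpoint kinase of DNA breaks, was higher by 1.11 ± 0.14 with BPA (adjusted p = 0.000902) and 0.94 ± 0.14 with NP (adjusted p = 0.0032). Pml, the scaffold of nuclear bodies, was higher by 1.36 ± 0.21 with BPA (adjusted p = 0.00225) and 0.88 ± 0.21 with NP (adjusted p = 0.024). Sirt1, a deacetylase of p53, was higher by 0.83 ± 0.14 with BPA (adjusted p = 0.00339) and 0.59 ± 0.14 with NP (adjusted p = 0.023). All 3 were lower on control day8 than on control day0 arrays (-1.87, -1.80 and -1.30). Hipk2, a kinase that phosphorylates p53, was lower, at -1.39 ± 0.25 with BPA (adjusted p = 0.0044) and -0.91 ± 0.25 with NP (adjusted p = 0.0393). Ppp1r13b, the p53 partner Aspp1, was lower, at -0.94 ± 0.22 with BPA (adjusted p = 0.0153) and -1.23 ± 0.22 with NP (adjusted p = 0.00795). Both were higher on control day8 than on control day0 arrays (2.27 and 2.25). Trp53bp1, a protein of DNA break repair, was lower with BPA (-0.41 ± 0.12, adjusted p = 0.0332). Without single arrays the NP calls ended for Pml (adjusted p up to 0.086, without control day8 array 1 or 3 or NP array 2 or 3), Sirt1 (up to 0.0813, without NP array 2 or 3) and Hipk2 (up to 0.128, without any 1 of 7 arrays). The BPA calls ended for Ppp1r13b (up to 0.0604, without control day8 array 1 or BPA array 1) and Trp53bp1 (up to 0.109, without control day8 array 1 or 2 or any BPA array). Over the mean of probe sets Pml did not pass with BPA (1.04, adjusted p = 0.112) or NP (0.51, adjusted p = 0.487), nor did Hipk2 with NP (-0.54, adjusted p = 0.161) or Trp53bp1 with BPA (-0.16, adjusted p = 0.787), and Hipk2 between the controls was at 0.95 (adjusted p = 0.00663). Between control day8 and control day0, 4 of the 18 were higher and 7 lower, where 28.3% and 20.5% of all genes were, with Trp63, a relative of p53, at least 1.59-fold higher (adjusted p = 0.00095).

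Of 18 other genes of the apoptosis machinery, 2 were higher and 2 lower with BPA, where 22.2% of all genes passed, and 1 was higher and 1 lower with NP, where 14.2% did. Cflar, the caspase-8 inhibitor FLIP, was lower with BPA (-1.04 ± 0.14, adjusted p = 0.0012), while Aifm1, a mitochondrial flavoprotein (0.48 ± 0.11, adjusted p = 0.0116), and Daxx, a histone chaperone that also binds Fas (0.48 ± 0.11, adjusted p = 0.0105), were higher. The survival gene Bcl2l2 was lower with BPA (-0.40 ± 0.13, adjusted p = 0.0471), a call that ended without any 1 of 11 arrays (adjusted p up to 0.15). With NP, Bok, a relative of Bax, was higher (0.55 ± 0.16, adjusted p = 0.0461), a call that ended without any 1 of 11 arrays (adjusted p up to 0.156). Tnfrsf1a, a TNF receptor, was lower (-0.70 ± 0.16, adjusted p = 0.0218), a call that ended without any control day8 array or NP array 2 or 3 (adjusted p up to 0.0703). Between control day8 and control day0, 7 of the 18 were higher and 4 lower, where 28.3% and 20.5% of all genes were. Bmf (1.82 ± 0.17, adjusted p = 3.34e-05) and Bnip3 (1.66 ± 0.23, adjusted p = 0.000327), both BH3 proteins, and the death receptor Tnfrsf21 (1.19 ± 0.20, adjusted p = 0.000914) had the largest rises at day 8. Bmf did not pass over the mean of its probe sets (0.63, adjusted p = 0.261), and Tnfrsf21 was at 0.73 (adjusted p = 0.013). Bok (-1.19 ± 0.16, adjusted p = 0.000233), Aifm1 (-0.81 ± 0.11, adjusted p = 0.000231) and Endog, a mitochondrial nuclease (-0.72 ± 0.20, adjusted p = 0.0133), had the largest falls. The Endog call ended without control day0 array 1 (-0.59, adjusted p = 0.0516).

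Of the 20 other p53 targets 9 were higher and 5 lower on control day8 than on control day0 arrays, where 28.3% and 20.5% of all genes were. Dram1, a lysosomal protein of autophagy (2.52 ± 0.40, adjusted p = 0.000679), Ddit4, an inhibitor of mTOR signalling (1.08 ± 0.24, adjusted p = 0.00416), and Btg2, an antiproliferative protein (1.05 ± 0.20, adjusted p = 0.0021), had the largest rises. Plk3 was at least 4.78-fold lower (adjusted p = 0.00451), Epha2, an ephrin receptor, fell by 1.94 on the log2 scale (adjusted p = 0.000336) and Tigar fell by 1.71 (adjusted p = 0.000478). In a fit of the compared groups alone, the calls against control day8 ended for Plk3, Sesn2, Trp53bp1 and Bcl2l2 with BPA. With NP they ended for Cdkn1a, Plk3, Tigar, Ercc5, Pml, Sirt1, Hipk2, Ppp1r13b and Bok. With no filter they ended for Sesn2, Trp53bp1 and Bcl2l2 with BPA and for Cdkn1a, Tigar, Ercc5, Hipk2 and Bok with NP. Proliferation genes, such as those of DNA replication and mitosis, summed to 13.90 to 14.12 on BPA arrays, 14.04 to 14.14 on NP arrays, 13.91 to 13.97 on control day8 arrays and 14.35 to 14.38 on control day0 arrays. Of 11 tested, 3 were higher with BPA and 2 with NP than on control day8 arrays, where 12% and 7.90% of all genes were. By limma 0 were lower with either agent, where 10.2% of all genes were with BPA and 6.28% with NP. With 11 genes this 0 cannot be told from the background.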

How the data were processed

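RNA of 12 samples in 4 groups of 3, set by the labels, was hybridised to Affymetrix arrays with 45101 probe sets, 64 of them controls. The deposited values are log2 signals that the authors made with MAS5, per the submitters' processing notes; the version is not given in the sources used here. Gene names came from the platform table, in which 34958 probe sets had 1 gene, 932 several and 9211 were not listed, and 34754 matched RefSeq by Entrez ID. The 60% of probe sets ranking highest in mean were kept (27023), with the brightest for each gene. A group-means model over all 12 arrays was fitted to 13067 genes. The fit used limma 3.58.1 under R 4.3.3 and its empirical Bayes test, which had 8 residual degrees of freedom and added 1.57 from the prior. P-values were adjusted by Benjamini-Hochberg, and a gene was called at an adjusted p under 0.05. The code was tested on simulated data. Promoters were searched in Python 3.11.15, and matplotlib 3.10.9 drew the figures.

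The background level is the highest of 36 log2 values of 3 control probe sets for bacterial trp transcripts, 3.41. Where a group lay under it, the fold is a lower bound with that group's values raised to it. The members and the gene lists were chosen with earlier results of these data known. All members are named, and of each further pathway list up to 3 genes with the largest rise and 3 with the largest fall among those past the threshold. With 3 arrays a group the number of arrays limits the precision, and an exact permutation test of 3 against 3 could not go below 0.1. There were 11 alternative settings, and each of the 12 arrays was left out in turn.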

Additional observations from a re-analysis of the deposited data

How the results depend on the processing

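MAS5 signals near the background are noisy, as in Fas and Bcl2, and 22 of the 34 measured members have several probe sets. Where a count below moved and no reason follows from the construction, the cause was not tested. In every alternative other than the rule of at least 1 log2 unit, the calls held for Bid, Gadd45a, Mcl1, Pmaip1 and Trp53inp1 of the 12 members with BPA against control day8, and Gadd45a, Mcl1 and Pmaip1 of the 5 with NP. Of the members not called against control day8, 7 of 22 with BPA and 7 of 29 with NP passed in some alternative or without some array. With the mean of probe sets, members called were 7 for BPA against control day8, 6 for BPA against control day0 and 4 for NP against control day0 (1 higher and 3 lower, against 7 and 1 on the brightest probe sets), and 3 genes were called between NP and BPA. The same setting turned Bcl2l1 with BPA to -0.38 against control day8 and -0.15 against control day0, Bcl2l1 with NP to -0.10 and Xiap with BPA to -0.044 against control day0, Chek1 to -0.21 with BPA and -0.29 with NP against control day8, and Hipk2 with BPA to -0.030 and Rrm2b with NP to -0.13 against control day0. For NP against control day8, members called were 8 with the top 40% of probe sets, 10 with a pseudocount of 16, 10 with a trend and robust prior and 9 with array weights, and genes called were 1182 with no filter and 645 with only the compared groups. With only the compared groups, 4 members were called for NP against control day0. A change of at least 1 log2 unit was met by 6 members and 3003 genes for control day8 against control day0, by 3 and 1199 for BPA and 2 and 764 for NP against control day8, and by 4 and 1699 for BPA and 2 and 1613 for NP against control day0, fewer by construction. Between NP and BPA, 4 genes were called with no filter, 3 with array weights, and 0 with the top 40% of probe sets, a pseudocount of 16, median centring, a trend and robust prior, only the compared groups or the replicate block. Leaving out 1 array gave 7 to 13 members and 1822 to 2949 genes for BPA against control day8, 3 to 8 and 802 to 1874 for NP against control day8 (802 without control day8 array 1), 8 to 12 and 3327 to 4477 for BPA against control day0, 4 to 10 and 3096 to 4351 for NP against control day0, 14 to 16 and 5515 to 6285 for control day8 against control day0, and 0 to 3 genes between NP and BPA. Same-numbered arrays deviated from their group means with correlations of -0.01 to 0.08. Values this low give little sign that the numbers pair the samples, but they cannot exclude it, and the labels do not say. The main fit takes the arrays as unpaired. With the replicate block in limma, 12 members were called with BPA and 5 with NP against control day8. These totals equal those of the main fit, but the members changed. Fas was among those called with both (adjusted p = 0.0242 and 0.0498), and Mdm4 was called with BPA (adjusted p = 0.0415). The calls ended for Bcl2l1 and Birc3 with BPA (adjusted p = 0.0687 and 0.0637) and for Gadd45g with NP (adjusted p = 0.0565).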

Other observations

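Probe sets of the same gene differed in direction for several members. For Bcl2l1 the brightest of 4 probe sets was at 0.43 with BPA and 0.34 with NP against control day8. Its second, which also passed the filter, was at -1.20 with BPA and -1.01 with NP, and the 2 that did not pass were at 0.78 and 0.97 with BPA and at 2.65 and -0.38 with NP. For Diablo the brightest of 2 was at 0.15 with BPA and 0.30 with NP, and the other at -1.68 with BPA and -0.64 with NP. For Bad the brightest of 2 was at 0.15 with BPA and 0.24 with NP, and the other at -0.54 with BPA and -0.65 with NP. For Gadd45b the brightest of 3 was 0.58 higher on control day8 than on control day0 arrays, and the others were at -0.69 and 1.45. The 3 probe sets of Bid had the same direction with each agent against control day8.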
